A study of Mus musculus with 5 samples.

Results

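The DNA replication and S-phase genes are 43 genes chosen by name for their part in copying DNA, of 21887 protein-coding genes in the mouse annotation used. They were followed in a peak list of H3K27ac, a histone H3 acetylation found at promoters and enhancers in use. The list was made from 4 H3K27ac libraries over 1 input library, all from mouse bone marrow cells sorted as CD45.2+, lineage-negative, Sca1+ and Kit+ and labelled HSC/MPP, the haematopoietic stem cells and multipotent progenitors. The genotype given for all 5 libraries, the input included, is Mll3/4 deleted: Mll3 and Mll4 (Kmt2c and Kmt2d) encode histone H3 lysine 4 methyltransferases that act mainly at enhancers. How and in which cells the deletion was made, and the ages of the mice, are not given in the sources used here. No library of another genotype was analysed here, and the peak list has no value of a single library, so the values below carry no replicate error and no test.

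Replication starts at origins, which are marked by the origin recognition complex (Orc1 to Orc6). Cdc6 and Cdt1 load the ring-shaped MCM helicase onto them in G1, and geminin (Gmnn) blocks Cdt1 afterwards. In S phase Cdc45 and the GINS complex join the helicase, Mcm10 helps to activate it, and the fork is then copied by primase and by the polymerases epsilon and delta, held to DNA by the sliding clamp Pcna. Many of these genes are transcribed in late G1 and S phase under E2F factors, and stem cells at rest keep several of them low. At an active gene H3K27ac usually flanks the start, leaving a gap at the start itself where nucleosomes are few.

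The peak list held 22948 peaks. Each carries a signal value, which is the authors' ratio of H3K27ac over background at the peak, from 1.44 to 34.0 over the list, and a −log10 q-value. Of the genes that mark the sorted cells, Ptprc (signal value 10.8), Flt3 (6.58) and Kit (5.66) had a peak within 1 kb of an end, while Ly6a, which encodes Sca1, and Cd34 had none. Early B-cell markers had one at 12 of 12 genes, with strongest signal values from 2.69 to 13.6, against 0 of 10 myeloid and 0 of 10 erythroid and megakaryocyte markers. Whether the sorted cells held a B-cell-like share, and any part of it in the values of the replication genes, was not tested. In a pooled list, fewer cells with an acetylated gene and less acetylation per cell cannot be told apart.

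At 29 of the 43 replication genes, or 67.4%, a peak lay within 1 kb of one of the gene's ends (an end peak). Over all protein-coding genes this share was 36.2%. The MCM helicase had a peak at each of its 6 genes and the RPA complex at each of its 3. Only 2 of the 6 polymerase and primase genes, 3 of the 6 origin recognition genes and 3 of the 6 genes that activate the helicase had one. When peaks needed a −log10 q of 5 or more, the number was 20 of 43 (46.5%), against 24.0% of all protein-coding genes. The genes therefore had a peak more often than genes in general in this list, under either threshold, but they were not all covered.

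**Figure D1:**
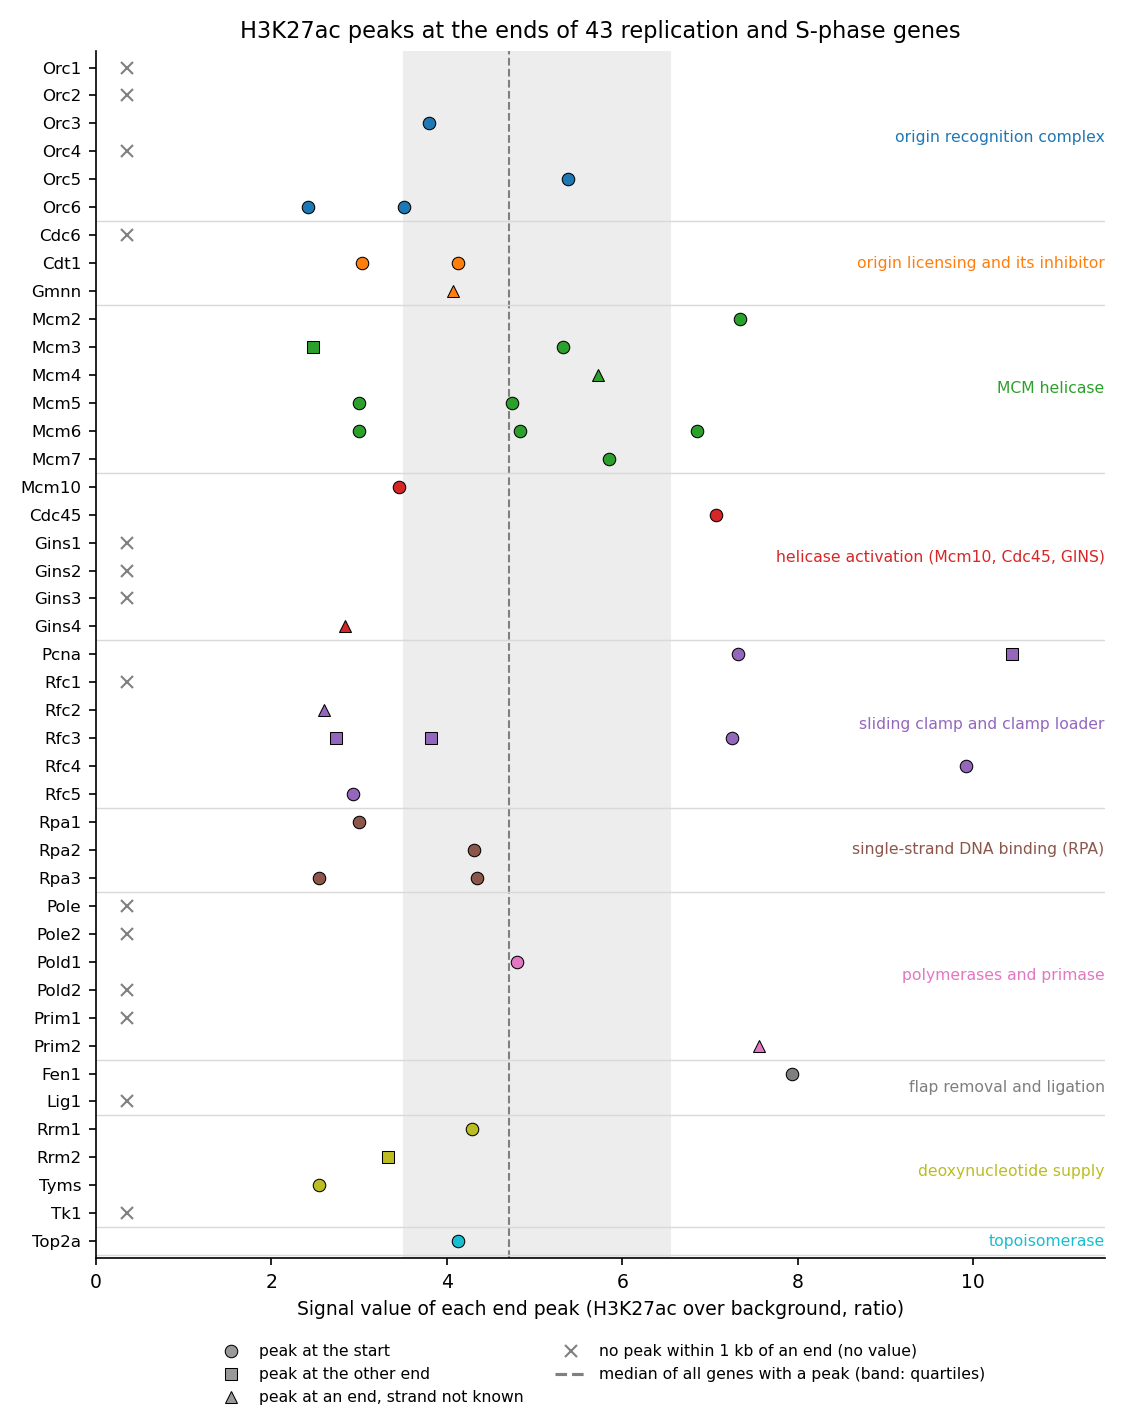
Signal value (ratio of H3K27ac over background, x axis) of each peak at an end of the 43 replication and S-phase genes, ordered by role. Circles are peaks at the annotated start, squares at the other end, triangles at an end of a gene of unknown strand and crosses genes without a peak, which have no value. The dashed line is the median of all 7929 protein-coding genes with a peak (4.71) and the band spans their quartiles (3.52 to 6.55). Pcna, Rfc4 and Fen1 lie farthest to the right.

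Where they had a peak, the replication genes had peaks of ordinary strength. The median of the strongest signal value was 4.34 over the 29 genes with a peak (quartiles 3.52 and 6.86), against 4.71 over all 7929 genes with a peak (3.52 and 6.55). Split by the quartiles of all genes with a peak, 7, 8, 6 and 8 of the 29 fell in the lowest to the highest class. The strongest peaks reached 10.4 and the weakest 2.54. These medians leave out the 14 genes without a peak.

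The strand of 35 of the 43 genes was known from the RefSeq promoter table, which allowed the start to be told from the other end. Of these 35, 23 (65.7%) had a peak at the start, against 35.4% of the 17492 protein-coding genes of known strand. Peaks at the other end were found at 4 (11.4%), against 4.84%. These 4 were Mcm3, Pcna, Rfc3 and Rrm2. Rrm2, the small subunit of ribonucleotide reductase, had a peak only at its other end, with a signal value of 3.33.

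The 6 MCM genes encode the ring that unwinds DNA at the fork. Their strongest signal values ran from 4.74 to 7.35, so all 6 lay above the median of all genes with a peak. Mcm2 had the highest of them, 7.35, in a peak of only 581 bp (chr6:88898125-88898705) whose summit lay 388 bp inside the gene. Mcm6 followed with 6.86 in a peak of 2371 bp. That peak began 732 bp inside the gene, and 2 weaker peaks (4.83 and 3.00) lay closer on either side of the start. Mcm7 had a signal value of 5.84, Mcm4 5.72, Mcm3 5.32 and Mcm5 4.74. Mcm5 had a second peak (3.00), so that its start lay between an upstream and a downstream peak. At Mcm3 a further peak near the other end had a signal value of 2.48 and a q-value of 0.117, which is above 0.05.

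Of the origin recognition genes, Orc5 (5.39), Orc3 (3.79) and Orc6 (3.52) had a peak at the start, and Orc1, Orc2 and Orc4 had none at an end. The RefSeq promoter table places start sites of Orc1 and Orc4 well inside their gene models. At Orc1, which encodes the largest subunit, the start site in the promoter table lies 3749 bp inside the gene model, and the peak near it had a signal value of 9.31 (chr4:108578648-108579826). That peak also reached the end of the neighbouring gene Prpf38a. At Orc4, start sites 2668 to 3635 bp inside the model had a peak with a signal value of 5.08, which also lay within 1 kb of an end of Mbd5. Orc2 had no peak near either of its 2 listed start sites.

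Among the licensing factors, Cdt1, which loads the helicase with Cdc6, had peaks on either side of its start with signal values of 3.03 before and 4.13 inside. Gmnn, its inhibitor, had a value of 4.07 in a narrow peak of 496 bp. Cdc6 had none within 1 kb of an end or of its listed start site, and the nearest peak lay 18.4 kb away. Cdt1 and Gmnn thus both lay below the median of all genes with a peak, and Cdc6 carried no call.

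The genes that turn the loaded helicase on were uneven. Cdc45 had a strong peak of 7.07 over 1949 bp, Mcm10 one of 3.46 and Gins4 one of 2.84. Gins1, Gins2 and Gins3, which encode other GINS subunits, had no peak at an end. The nearest peak to an end of Gins3 lay 161 kb away, the longest such distance among the 43 genes. For Gins2 it was 42.6 kb and for Gins1 4.32 kb, each to the nearer edge of the peak.

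The sliding clamp and its loader held both the strongest and some of the weakest values. Rfc4, a small subunit of the loader, had a single peak of 9.92 over 2751 bp (chr16:23126636-23129386), the widest peak at an end of any of the 43 genes. Pcna, the clamp, had 2 peaks: 7.31 at the start (chr2:132252031-132254288) and 10.4 at the other end (chr2:132246952-132248812). The peak at the other end also reached the end window of Tmem230, and the peak at the start that of Cds2. The peak of 10.4 lay outside Pcna, 474 to 2334 bp past its other end, with the summit at 1166 bp. With the summit required inside the window, or with the annotated start alone used, the strongest value of Pcna was 7.31. Rfc3 had a peak of 7.25 at its start and peaks of 3.82 and 2.74 at its other end. Rfc5 had a value of 2.94 and Rfc2 one of 2.60 in a peak of 235 bp, with a q-value of 0.0604. Rfc1, the large subunit, had no peak at an end, but a peak of 3.79 lay 369 bp into the gene from a listed start site 2978 bp inside its model. The subunits of this one complex therefore spanned most of the range seen in all 43 genes.

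The single-strand DNA binding complex, which coats unwound DNA, had a value of 2.996 at Rpa1, 4.31 at Rpa2 and 4.34 at Rpa3. Of the polymerases, Pold1, the catalytic subunit of polymerase delta, had a peak of 4.80 and Prim2, the large subunit of primase, one of 7.56. Pole, Pole2, Pold2 and Prim1 had none. The nearest peak to Prim1 was strong (9.80) and lay 4.69 kb from the gene, at the end of Naca. Fen1, the nuclease that removes flaps of Okazaki fragments, had a wide peak of 7.93 over 2686 bp (chr19:10202765-10205450), while Lig1, the ligase that seals them, had none. Of this pair of enzymes that act one after the other, one had a peak among the strongest and the other none within 1 kb. The peak of Fen1 also reached the end window of Tmem258, and the nearest peak to an end of Lig1, of 4.22, lay 3.03 kb away.

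In the supply of deoxynucleotides, Rrm1, the large subunit of ribonucleotide reductase, had a peak of 4.28 at its start and Rrm2 only the one at its other end. Tyms, thymidylate synthase, had the lowest strongest value of the 29 genes, 2.54, with a q-value of 0.0604. Tk1, thymidine kinase, had none within 1 kb. Top2a, the topoisomerase that untangles copied DNA, had a peak of 4.13, all of it inside the gene. At Rfc2 and Tyms, 2 of the 29 genes (6.90%), the strongest peak had a q-value above 0.05, against 4.93% of all genes with a peak.

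In all, 14 of the genes had no peak within 1 kb of an end: Orc1, Orc2, Orc4, Cdc6, Gins1, Gins2, Gins3, Rfc1, Pole, Pole2, Pold2, Prim1, Lig1 and Tk1. Of the 29 with a peak, Rfc2 had its nearest peak farthest from an end, 421 bp away. Just outside the 1 kb limit were Orc4 at 2.16 kb, Orc1 at 2.94 kb, Lig1 at 3.03 kb and Rfc1 at 3.04 kb. With the listed start sites inside gene models added to the gene ends, an alternative chosen after the data were seen, Orc1, Orc4 and Rfc1 gained a peak and the count was 32 of 43 (74.4%), against 38.7% of all protein-coding genes. The lack of a called peak does not mean a lack of acetylation, and total reads are not given in the sources used here.

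The position of the peaks around the start was like that over all genes. Of the 23 genes with a peak at the start, 12 had one that covered it, 4 had separate peaks on either side (Cdt1, Mcm5, Mcm6 and Rpa3), 6 had peaks only inside the gene and 1, Rpa1, only before it. The shares over all 6192 genes with a peak at the start were 45.5%, 13.9%, 33.8% and 6.82%, against 52.2%, 17.4%, 26.1% and 4.35% here. The summit of the strongest peak lay a median of 388 bp from the start, against 429 bp over all genes, and inside the gene in 16 of 23 (69.6%), against 73.4%. Cdc45 alone had its summit within 150 bp of the start.

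**Figure D2:**
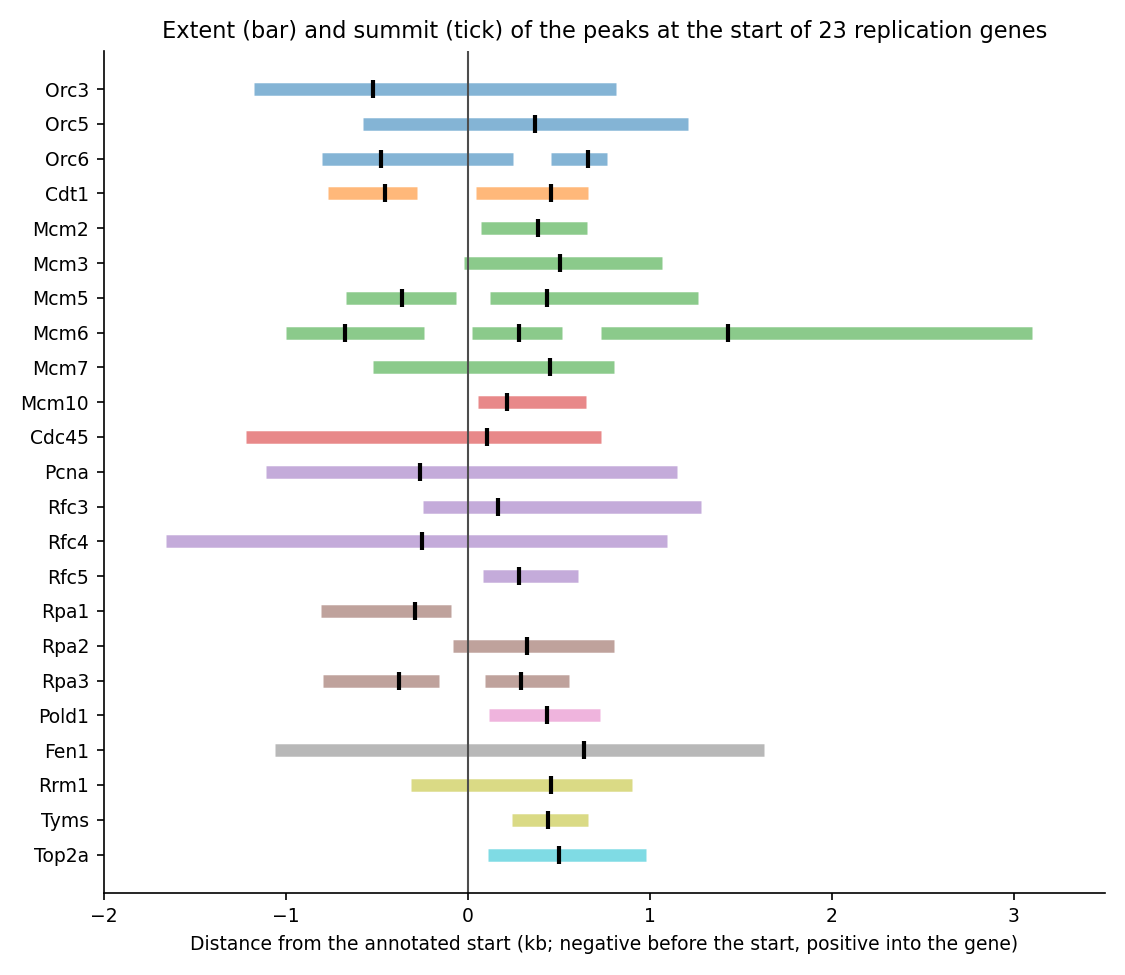
Peaks at the annotated start of the 23 replication genes of known strand that have one. The x axis is the distance from the start in kb, negative before it and positive into the gene. Bars show the extent of each peak and black ticks its summit, and colours mark the roles. The summits of 16 genes' strongest peaks lie inside the gene, and Cdt1, Mcm5, Mcm6 and Rpa3 show a gap at the start between peaks.

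End peaks were shared with a neighbouring gene about as often as over all genes with a peak. Of the 29 genes, 10 (34.5%) had an end peak that also reached the end window of another protein-coding gene, against 33.0% of all genes with a peak. For 7 of them the neighbour's start faces away from the replication gene's start. Between gene models, the gap was 6 bp for Orc3 and Rars2, 21 bp for Rpa1 and Smyd4 and 90 bp for Mcm7 and Ap4m1. It was 147 bp for Rpa3 and Umad1 and 158 bp for Pcna and Cds2. For Fen1 and Tmem258 it was 191 bp and for Cdc45 and Ufd1 236 bp. The listed start sites of Orc3, Rpa1 and Mcm7 lie 21, 71 and 228 bp inside their gene models. For Mcm4 with Prkdc, 44 bp apart, and Orc6 with Vps35, 115 bp apart, a strand was missing from the table. Pold1 shared its peak with Nr1h2, whose nearest end lay 801 bp away and whose start lay 5153 bp from that of Pold1. This peak lay wholly inside Pold1, 116 to 725 bp past the gene's start. Pcna also shared the peak at its other end with Tmem230, 227 bp away, and that peak lay wholly outside Pcna. For the other pairs, the signal of a shared peak cannot be told apart between the 2 genes. With all shared peaks left out, 19 of the 43 genes still had a peak of their own, against 25.5% of all protein-coding genes.

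The median width of the strongest peak was 884 bp over the 29 genes, against 1109 bp over all genes with a peak. With peaks within 1 kb of each other joined, these medians were 1327 and 1456 bp, and with a −log10 q of 5 or more required they were 1270 and 1458 bp. In the quartiles of width of all genes with a peak, the 29 genes fell 11, 6, 4 and 8 from the narrowest to the widest. The 5 widest at a gene's strongest peak were Rfc4 (2751 bp), Fen1 (2686 bp), Mcm6 (2371 bp), Orc3 (1990 bp) and Cdc45 (1949 bp). The start peak of Pcna, which was not its strongest, spanned 2258 bp. Of the 29, 3 were wider than 2 kb (10.3%, against 19.4% of all genes with a peak) and 0 wider than 5 kb, against 1.6%. The early B-cell markers in the same list had widths from 2078 to 11747 bp. Mcm2 stood out among the 29 for a strong peak that was narrow.

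**Figure D3:**
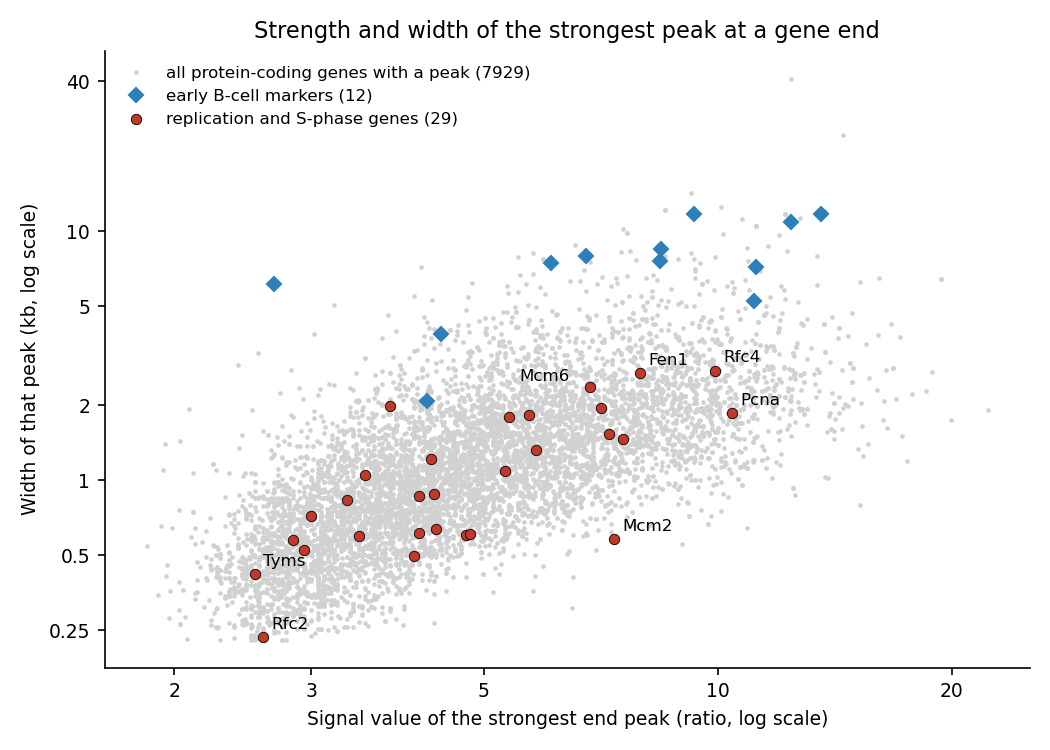
Width in kb (y axis, log scale) against signal value (x axis, log scale) of the strongest peak at an end of each gene. Grey points are all 7929 protein-coding genes with a peak, red circles the 29 replication genes and blue diamonds the 12 early B-cell markers. The replication genes lie within the grey cloud, and none of them reaches the widths over 5 kb of 10 of the B-cell markers.

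Distal peaks, those that reach no end window of a protein-coding gene, lay within 50 kb of an end of 22 of the 43 genes, or 51.2%, against 40.6% of all protein-coding genes. With a −log10 q of 5 or more required of the peaks, the count was 11 (25.6%, against 18.9%), and with a signal value of 4 or more it was 9 (20.9%, against 17.6%). At the latter threshold the share lay near that of all genes, and no difference was tested. The median was 1 per gene, against 0 over all genes, but it was also 0 under either threshold. The median number of other protein-coding genes within 50 kb was 3 for the members and for all genes. The 46 distal peaks had a median signal value of 3.01, against 2.94 over all 14607 distal peaks, and 14 of them had −log10 q of at least 5. The replication gene had the nearest coding gene end for 15 of the 46 peaks, at 9 genes. For the other 31 another gene lay closer, so they cannot be ascribed to the replication gene.

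Tk1 had the most distal peaks, 8, with signal values from 1.86 to 3.93, and all 8 lay nearer to Tmc6 or Tmc8. Pcna had 4, between 10.5 and 38.8 kb from its ends, the strongest of them 7.38, all nearer to Cds2. Pole2 had 4, of which 1, at 13.9 kb with a signal value of 4.93, lay nearest to Pole2 itself. Inside genes lay those of Rfc1, with 4 peaks in its own body, the strongest of 6.37 (chr5:65325263-65327499) and one the peak of 3.79 near the inner start site described above, and of Prim2, a long gene with 4 weak peaks in its body of 2.41 to 3.24. A peak of 6.73, the one given above as nearest to Gins2, had its summit 42.8 kb from that gene in a stretch where Gins2 had the nearest coding end. The strongest distal peaks near any of the 43 genes, 8.69 and 7.84 at 11.0 and 20.4 kb from Cdt1, were nearer to Piezo1.

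**Figure D4:**
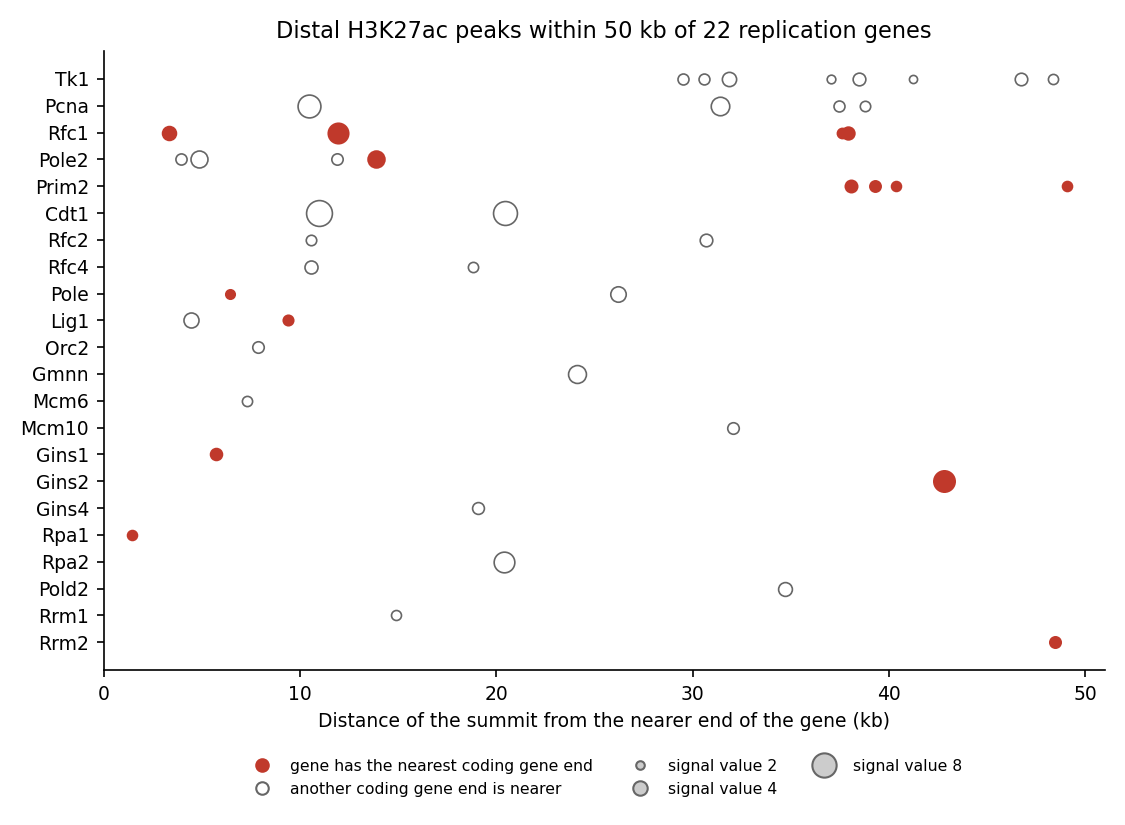
Distal peaks within 50 kb of 22 replication genes, by the distance of the summit from the nearer end of the gene (x axis, kb). Point area grows with the signal value, red points are peaks for which the gene has the nearest coding gene end, and open points have another gene closer. Red points are 15 of the 46 and lie at Rfc1, Prim2, Pole2, Pole, Lig1, Gins1, Gins2, Rpa1 and Rrm2.

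The promoters were read from RefSeq (GRCm38.p6), as 300 bases per gene, 250 before the start and 50 from it on, for the 35 of 43 genes in the table, using the outermost start listed. The letters of the E2F site (TTTCCCGC, TTTGGCGC, TTTCGCGC or TTTGCCGC on either strand, overlapping matches counted apart) were found in 12 of these 35 promoters (34.3%). Over all 17492 protein-coding promoters of the same length the share was 2.94%, and over those of genes that had an end peak it was 4.69%. Among the lists of related genes, 8 of 34 other replication promoters (23.5%) and 7 of 15 of the E2F, Rb and S-phase entry genes (46.7%) held it, against 1 of 24 of mitosis genes (4.17%) and 0 of 18 of nucleotide supply genes. The 12 members were Orc1, Orc3, Cdc6, Cdt1, Mcm3, Mcm5, Mcm6, Mcm7, Gins3, Rfc3, Pole2 and Pold1. By presence of an end peak, 4 of the 11 genes lacking an end peak held a match, Orc1 with a peak at its inner start among them, and so did 8 of the 24 that had one; the difference was not tested. Of all promoters with a match, 59.3% belonged to a gene that had an end peak, against 8 of the 12 here.

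For 8 of the 12 genes a match lay wholly before the start, and 6 of these are printed to show the letters in place, 3 from genes with an unshared peak (Mcm5, Mcm6 and Rfc3) and 3 from genes lacking an end peak (Orc1, Cdc6 and Gins3). The 2 genes with the strongest peaks at the start, Rfc4 and Fen1, hold no match and are printed for comparison. Each line gives the 250 bases before the start, 5′ to 3′ on the gene's strand, with E2F letters in capitals.
Rfc4: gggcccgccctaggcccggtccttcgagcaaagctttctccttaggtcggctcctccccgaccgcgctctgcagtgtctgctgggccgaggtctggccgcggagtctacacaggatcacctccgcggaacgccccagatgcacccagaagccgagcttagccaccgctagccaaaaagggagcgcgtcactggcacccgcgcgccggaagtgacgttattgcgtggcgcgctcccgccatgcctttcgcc
Fen1: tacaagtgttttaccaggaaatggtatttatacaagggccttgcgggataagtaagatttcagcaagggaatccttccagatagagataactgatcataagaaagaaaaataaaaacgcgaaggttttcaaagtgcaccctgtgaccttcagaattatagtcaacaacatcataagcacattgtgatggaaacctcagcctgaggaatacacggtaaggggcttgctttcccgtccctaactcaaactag
Mcm5: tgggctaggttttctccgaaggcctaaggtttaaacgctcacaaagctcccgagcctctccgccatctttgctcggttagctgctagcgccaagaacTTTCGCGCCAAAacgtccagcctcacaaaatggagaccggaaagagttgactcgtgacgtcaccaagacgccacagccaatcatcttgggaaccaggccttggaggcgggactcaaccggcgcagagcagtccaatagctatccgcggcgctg
Mcm6: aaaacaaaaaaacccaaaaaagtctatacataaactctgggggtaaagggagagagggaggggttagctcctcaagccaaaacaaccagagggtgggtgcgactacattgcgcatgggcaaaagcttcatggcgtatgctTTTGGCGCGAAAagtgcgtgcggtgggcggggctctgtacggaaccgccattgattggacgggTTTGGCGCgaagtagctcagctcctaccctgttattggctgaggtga
Rfc3: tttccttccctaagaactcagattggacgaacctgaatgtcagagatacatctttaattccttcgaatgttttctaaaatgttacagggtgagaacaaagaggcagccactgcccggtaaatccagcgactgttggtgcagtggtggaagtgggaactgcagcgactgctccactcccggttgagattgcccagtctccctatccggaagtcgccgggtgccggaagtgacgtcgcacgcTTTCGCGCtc
Orc1: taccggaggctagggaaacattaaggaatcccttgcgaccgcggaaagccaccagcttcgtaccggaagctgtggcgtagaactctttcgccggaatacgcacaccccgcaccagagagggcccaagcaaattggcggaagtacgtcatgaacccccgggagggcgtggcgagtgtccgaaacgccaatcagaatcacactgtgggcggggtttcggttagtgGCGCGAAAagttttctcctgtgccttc
Cdc6: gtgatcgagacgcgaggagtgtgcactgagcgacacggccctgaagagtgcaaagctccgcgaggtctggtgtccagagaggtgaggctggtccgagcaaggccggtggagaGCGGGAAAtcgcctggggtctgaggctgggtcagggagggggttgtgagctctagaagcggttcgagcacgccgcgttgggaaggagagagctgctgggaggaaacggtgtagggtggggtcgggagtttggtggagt
Gins3: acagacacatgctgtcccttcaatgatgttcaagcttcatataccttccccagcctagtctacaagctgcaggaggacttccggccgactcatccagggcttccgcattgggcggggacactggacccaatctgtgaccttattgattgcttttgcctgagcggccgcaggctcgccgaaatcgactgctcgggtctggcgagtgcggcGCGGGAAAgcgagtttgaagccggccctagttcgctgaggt

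These bases lie at chr16:23127731-23127980 for Rfc4 and at chr19:10204394-10204643 for Fen1, both on the minus strand, and at chr8:75109259-75109508 on the plus strand for Mcm5. They lie at chr1:128359706-128359955 for Mcm6 and at chr5:151651209-151651458 for Rfc3, on the minus strand, and at chr4:108579204-108579453, chr11:98907901-98908150 and chr8:95633309-95633558 for Orc1, Cdc6 and Gins3, on the plus strand. At Mcm5 and Mcm6, 2 matches on opposite strands overlap, at positions -153 to -142 and -110 to -99 counted from the first base of the listed start site as 0, and Mcm6 has a further match at -47 to -40. The match of Gins3 lies at -41 to -34, that of Orc1 at -27 to -20, 1 of Rfc3's at -10 to -3, with another at 0 to 7 past the printed bases, and that of Cdc6 at -138 to -131. The starts used for Orc1, Cdc6 and Mcm5 lie 3749, 442 and 41 bp inside their gene models, and the printed bases of Orc1 lie within the peak of 9.31 described above. A match is a run of letters and not a measured site.

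Member promoters were also rich in CpG. The ratio of observed to expected CpG had a median of 0.874 over the 35 promoters, against 0.577 over all protein-coding promoters, and was at least 0.6 in 27 of 35 (77.1%), against 48.4%. Over promoters of all genes that had an end peak, 78.4% reached this ratio, as did 88.2% for the other replication genes, 95.8% for mitosis genes and 84% for proteasome genes, so a high CpG ratio was not particular to the 43. Of all genes with such a promoter, 60.2% had a peak at an end, against 20 of these 27 (74.1%). Among the other 8 promoters, 4 belonged to a gene with a peak, against 15.6% of all genes with a CpG ratio under 0.6.

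Other genes of the pathway, on lists made apart from the 43, had peaks at a similar or higher share. Of 40 other replication genes 31 had a peak at an end (77.5%), from Pola1, the catalytic subunit of polymerase alpha (2.12), to the topoisomerase Top1 (9.77), with a median of 4.25. The 9 without were Pole3, Mcmbp, Clspn, Dscc1, Dna2, Chaf1a, Asf1b, Nasp and Dnmt1. Of 20 other genes of nucleotide supply 15 had one (75%), from Dut (3.12) to Gart (10.2), and Shmt1, Shmt2, Samhd1, Nme2 and Paics had none. Of 20 E2F, Rb and S-phase entry genes 14 had one (70.0%), from E2f8 (2.20) to Rbl2 (7.59), and E2f1, E2f6, E2f7, Ccne2, Skp2 and Fbxo5 had none. E2f2 had a peak of 6044 bp with a signal value of 7.28, wider than any end peak of the 43 genes. Each of these lists thus held genes with and without a call, with E2f1, an activator of S-phase entry, among the latter.

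Mitosis genes, which peak later in the cell cycle, had a peak at 23 of 30 genes (76.7%), with a median signal value of 5.05 and a highest value of 11.2 at Ndc80. The lowest was 2.84 at Plk1, and Bub1, Cenpf, Kif23, Nuf2, Cdc25c, Ube2c and Racgap1 had none. Proteasome subunit genes, which are used in every phase, had one at 29 of 31 (93.5%), with a median of 4.77 and values from 2.37 at Psma1 to 8.23 at Psmd8, and Psmb3 and Psmd2 had none. The differences between these shares and the 67.4% of the replication genes were not tested, since genes of a list are not replicates.

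**Figure D5:**
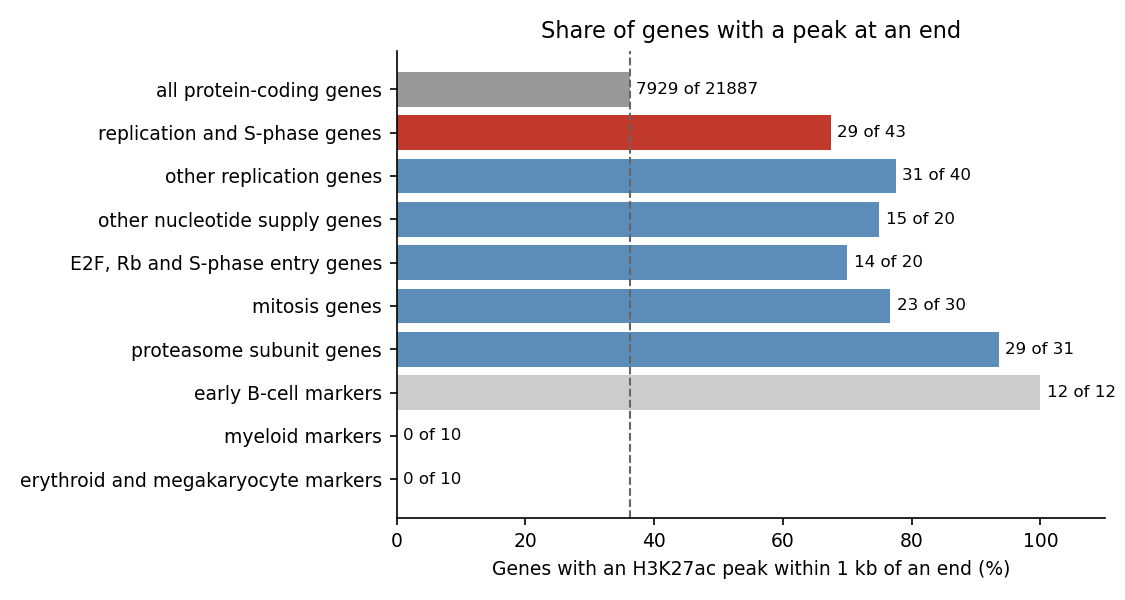
Share of genes with an H3K27ac peak within 1 kb of an end (x axis, %), with the count beside each bar. The dashed line is the share over all protein-coding genes (36.2%). The replication and S-phase genes (red, 29 of 43) and the comparison lists (blue) lie above it, the early B-cell markers (light grey) at 12 of 12 and the myeloid and erythroid markers at 0.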

How the data were processed

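H3K27ac was measured by ChIPmentation, in which the Tn5 transposase adds sequencing adapters to immunoprecipitated chromatin. BWA, MACS2 and mm10 are named in the submitters' processing notes, with no versions or settings, and total reads are not given in the sources used here. The deposited list has no header. By the narrowPeak format its seventh column is the authors' enrichment ratio, called the signal value here, and the p-value and q-value columns are the authors' −log10 values. The authors' score column repeats −log10 p. These values served only for comparing peaks inside the list.

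Gene positions came from RefSeq GRCm38.p6 and strand from its promoter table, which held 35 of the 43 genes. Gmnn, Mcm4, Gins1, Gins2, Gins4, Rfc2, Pole and Prim2 were not matched there. Overlaps were computed in Python 3.11.15 with pandas 2.3.3 and numpy 2.4.6 and tested on simulated data. An end peak was one with any base within 1 kb of either gene end, and a distal peak one outside all such windows of protein-coding genes. Percentages are shares of genes, with no interval, since genes are not replicates. The members and lists were chosen with earlier results of these data known. Genes were named by role, by presence of a peak, by highest and lowest signal value, width and number of distal peaks, and by shared peaks; printed promoters were in part chosen after the E2F matches were seen.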

Additional observations from a re-analysis of the deposited data

How the results depend on the processing

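Of 56 recomputed summary values, 44 stayed within a factor of 1.5 of the reported one. So did all 235 strongest signal values of single genes that still had a peak. Thresholds and joining of peaks can only drop a gene or keep its strongest value, so values under these settings say little about stability. Window, summit and start settings can change a value. That of Pcna was 10.4, but 7.31 with the summit inside the window or with the annotated start only. That of Mcm6 was 6.86, but 4.83 with the summit inside the window or with a window of 500 bp. The count of 29 genes with a peak ranged from 19, with peaks shared with another gene left out, to 32, with inner start sites added. The median width was 1327 bp after peaks within 1 kb were joined, against 1456 bp over all genes with a peak. Genes with a distal peak numbered 22, but 11 when −log10 q had to reach 5 and 9 when the signal value had to reach 4, with 18.9% and 17.6% of all protein-coding genes having one. The median number of distal peaks was 0 under either of these, with a q-value of at most 0.05, with a window of 2.5 kb and with a distance of 25 kb, as it was over all genes. The share of all protein-coding genes with a peak at an end was 24.0% when −log10 q had to reach 5 and 23.2% when the signal value had to reach 4, and 20.9% of all annotated genes had one. Stricter thresholds and leaving out shared peaks can only lower such counts and shares. A wider end window or a shorter distance can only lower the number of distal peaks, and joined peaks are wider. The share over all annotated genes has a different base. Whether anything else played a part in these moves was not tested.

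The inner start sites, the share of all genes without shared peaks and their widths and distal shares under each setting were added after the data were seen. Start-only windows were not run for distal peaks. No paired analysis was possible because values per replicate are lacking in a pooled list, and leaving out each library in turn was not run for the same reason.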

Other observations

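Other promoter letters were counted in the same 35 promoters, on either strand, and none of these counts was tested. The CCAAT box (CCAAT), bound by NF-Y, was in 23 of 35 (65.7%), against 39.2% of all protein-coding promoters and 39.6% of those whose gene had an end peak, with 6 copies in Top2a and 3 in each of Mcm3, Mcm5, Mcm7, Mcm10, Rpa2 and Pold2. ETS letters (CCGGAAGT) were in 8 (22.9%, against 5.28% of all promoters and 10.1% of those whose gene had an end peak), with 2 copies in Rfc3 and Rpa3. NRF1 letters (GCGCATGC) were in 5 (14.3%, against 3.61% and 6.43%) and YY1 letters (AAGATGGC) in 3 (8.57%, against 3.21% and 5.62%). The GC box (GGGCGG) was in 25 (71.4%), against 46.3% of all promoters and 66.2% of those whose gene had an end peak. The letters of the cell cycle homology region (TTTGAA or TTCGAA), known from genes of G2 and mitosis, were in 7 (20%), close to the 18.2% of all promoters, with 4 copies in Top2a. None of these letters was particular to the 43 genes: CCAAT was in 79.2% of mitosis, 53.3% of E2F, Rb and S-phase entry and 50% of other replication promoters, ETS letters in 5 of 25 proteasome promoters, NRF1 letters in 20.8% of mitosis promoters, YY1 letters in 3 of 25 proteasome promoters, the GC box in 87.5% of mitosis promoters and the cell cycle homology letters in 83.3% of these.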
